A study of Ovis aries with 16 samples.

Results

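The comparison described here is that of growth-restricted male sheep fetuses (MFGR) with control male fetuses (MC) in perirenal adipose tissue, the fat around the kidney. It used 8 of the 16 RNAseq libraries of the study, the 4 MC and the 4 MFGR libraries, 1 for each fetus. Both groups were near-term singleton fetuses of crossbred Columbia-Rambouillet ewes. The MFGR ewes were kept in high ambient heat during a part of pregnancy (the labels give Hyperthermia). By the paper's methods the heat ended well before the near-term tissue was taken. In this model the placenta becomes insufficient and the fetus grows less. The MC ewes (labelled Control) were kept at a neutral temperature and were pair-fed to the heated ewes. The heat acted on the ewe and placenta and not on fat alone, and feed was matched between the groups, so the comparison is of the whole model. Of the 35219 transcripts in the table, 3640 had at least 20 TPM (transcript abundance scaled to transcript length and to a fixed sum per library) in at least 3 of the 8 libraries. These were tested as log2(TPM + 1) in limma, with the p-value adjusted over all 3640. A transcript was called at an adjusted p under 0.05 and a fold above 1.5. Fold changes below are MFGR minus MC on the log2(TPM + 1) scale, which understates the change of low transcripts, and each is given with its standard error (SE).

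Perirenal fat of the near-term lamb is largely brown. Brown adipocytes burn fuel for heat through UCP1, a proton channel of the inner mitochondrial membrane, and the newborn lamb depends on them at birth. Mature adipocytes carry the fatty acid binding protein FABP4 and secrete adiponectin (ADIPOQ), whereas THY1 is a surface protein of the mesenchymal cells from which adipocytes form. PPAR signaling is the nuclear receptor pathway that switches on genes of fat storage in adipocytes, with FABP4 among its targets.

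The table lists transcripts by identifier and gives no genes. Names were therefore available only for 20 transcripts that the study's printed tables give with their identifiers, and membership in pathways only from its supplementary pathway lists. Other transcripts are given by their Ensembl identifier. A gene symbol below stands for the transcript of that gene that the tables name, and for THY1 and CIDEA, which have a pair each, for the first unless both are summed. Markers of blood, endothelium, muscle, kidney and adrenal gland were not among the named transcripts and were not checked. In whole tissue, fewer cells of a type and less RNA per cell cannot be told apart.

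All 8 libraries carried transcripts of mature adipocytes and UCP1 of brown adipocytes. UCP1 stood between 1317 and 3366 TPM, ADIPOQ between 1746 and 2388 TPM, and FABP4 between 1416 and 10071 TPM. In contrast, HOXC9, which marks white adipocytes, stood between 2.36 and 6.94 TPM, and leptin (ob), a hormone of white adipocytes, between 11.5 and 47.9 TPM. The libraries listed 20235 to 21917 transcripts above 0, and the tested transcripts held 90.9% to 94.1% of their TPM. The number of reads behind a value is unknown, since TPM keeps no counts.

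The MC and MFGR libraries separated on the first principal component. PC1 held 29.0% of the variance, with scores of -13.2, 1.82, -25.2 and -13.7 in MC1 to MC4 and of 17.3, 12.5, 6.64 and 13.8 in MFGR1 to MFGR4. The groups did not overlap (exact permutation test over 70 splits, two-sided, p = 0.0286, the smallest that 4 against 4 libraries allow). With transcripts down to 1 TPM included, this p was 0.143, and that of PC2 became 0.0286. Without MFGR1, MFGR2 or MFGR3 the p of PC1 was 0.0571 to 0.0857. PC2 held 21.3% of the variance and did not separate the groups (exact permutation test, p = 0.286). MC2 stood apart from the other controls, nearest to the MFGR libraries on PC1 and lowest on PC2 at -24.3. Correlations between libraries over the tested transcripts were 0.900 to 0.955 within a group and 0.884 to 0.933 between the groups.

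**Figure D1:**
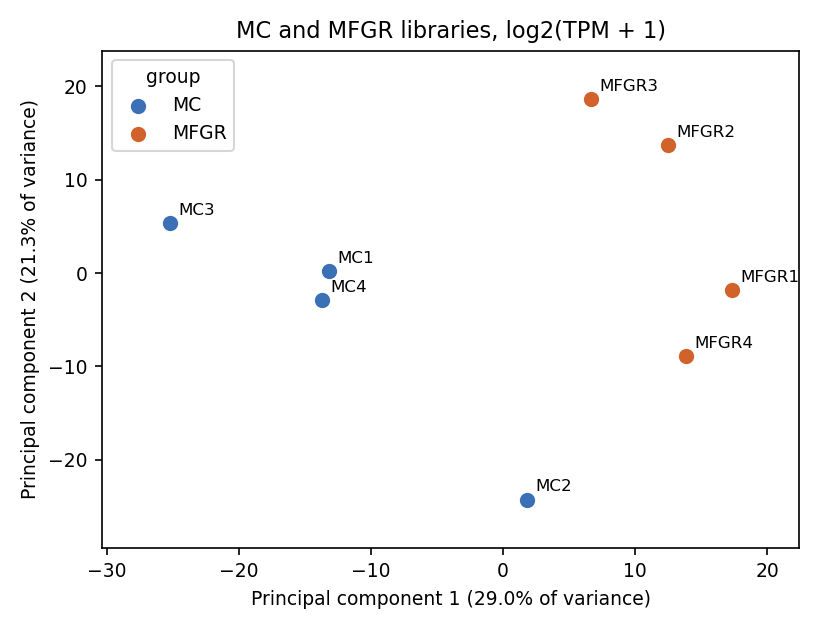
Scores of the 8 libraries on principal components 1 (x axis) and 2 (y axis) of log2(TPM + 1), without units, with MC in blue and MFGR in orange. The MFGR libraries sit between 6.64 and 17.3 on PC1 and the MC libraries between -25.2 and 1.82, with MC2 closest to MFGR and lowest on PC2.

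Few single transcripts passed the test in spite of this separation. In limma, 2 of the 3640 transcripts were called (0.0549%), 2 higher and 0 lower in MFGR. At an unadjusted p under 0.05 there were 662 (18.2%), of which 363 were higher (9.97%) and 299 lower (8.21%). The 4 MFGR values lay wholly above or below the 4 MC values for 393 transcripts (10.8%), with 231 higher (6.35%) and 162 lower (4.45%). The median log2 fold change of all tested transcripts was -0.005 and the median SE was 0.16. The call count rested on single libraries. Without MC2 it was 43 higher and 39 lower, without MFGR4 it was 5 higher and 1 lower, and without MFGR2 it was 3 higher and 0 lower. Without MC4 it was 1 higher and 0 lower, and without MC1, MC3, MFGR1 or MFGR3 it was 0 in both directions. When all 16 libraries were fitted together, the same thresholds gave 13 higher and 10 lower.

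Both called transcripts stand in the study's list of metabolic pathways. The study chose its lists on the same 8 libraries, so this membership is not independent evidence. ENSOART00020016887 stands in the lists of PPAR signaling and of metabolic pathways. It was at 19.1, 22.2, 23.2 and 25.4 TPM in MC1 to MC4 and at 58.5, 94.6, 58.6 and 57.4 TPM in MFGR1 to MFGR4. Every MFGR library was above every MC library, and the MFGR mean was 2.85-fold that of MC on the tested scale. It rose by 1.51 on the log2 scale (SE 0.17, limma adjusted p = 0.0319).

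ENSOART00020022203 is listed under the metabolism of xenobiotics by cytochrome P450, the group of enzymes that oxidize and clear foreign compounds, and under metabolic pathways. It was at 148, 123, 106 and 157 TPM in MC1 to MC4 and at 376, 297, 424 and 312 TPM in MFGR1 to MFGR4. Again the lowest MFGR library exceeded the highest MC library. It rose by 1.39 on the log2 scale (SE 0.17, limma adjusted p = 0.0319). Both calls were lost without MC1, MC3, MC4, MFGR1 or MFGR3 (adjusted p from 0.0577 to 0.124), while both fold changes stayed at 1.29 or more. Over the transcripts at 1 TPM or more the adjusted p of both was 0.0585.

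Of transcripts with neither a name nor a list, the following 4 were picked after their values were seen, because they came next to the threshold. ENSOART00020039989 was at 5.86 to 14.9 TPM in MC and at 43.0 to 136 TPM in MFGR (log2 fold change 2.85, SE 0.39, adjusted p = 0.0525). ENSOART00020038190 was at 234 to 260 TPM in MC and at 382 to 482 TPM in MFGR (0.77, SE 0.11, adjusted p = 0.0525). Lower in MFGR were ENSOART00020002244, at 45.8 to 81.2 TPM in MC and 21.9 to 30.0 TPM in MFGR (-1.26, SE 0.18, adjusted p = 0.0542), and ENSOART00020033922, at 55.2 to 87.5 TPM in MC and 31.0 to 39.4 TPM in MFGR. None of the 4 overlapped between the groups and none was called. A pick by low p favours a lack of overlap, so this is only a description. ENSOART00020039989 passed the filter only through its MFGR libraries. All 4 were called without MC2, with limma adjusted p from 0.00719 to 0.0280. They were also called with library weights (0.0149 to 0.0187) and with TPM rescaled without mitochondrial transcripts (0.0183 to 0.0454). When other single libraries were left out, their highest adjusted p was 0.124 to 0.165.

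The markers of adipocytes gave no call in either direction. Among the mature adipocyte markers, FABP4 and ADIPOQ differed in how they stood between the groups. FABP4 was at 2553, 4002, 1416 and 1809 TPM in MC1 to MC4 and at 10071, 4596, 3216 and 6178 TPM in MFGR1 to MFGR4. The ranges overlapped, since MFGR3 was below MC2, and MFGR1 was the highest library. Its log2 fold change was 1.28 (SE 0.40), with a limma adjusted p of 0.151. Without any 1 library the log2 fold change stayed between 0.99 and 1.56. ADIPOQ had a narrow range of 2197 to 2388 TPM in MC and lay between 1746 and 2321 TPM in MFGR. Its log2 fold change was -0.20 (SE 0.12, adjusted p = 0.409).

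The preadipocyte marker THY1 was lower in most MFGR libraries. The first THY1 transcript was at 63.0, 33.1, 68.1 and 60.9 TPM in MC1 to MC4 and at 14.9, 19.0, 35.4 and 23.7 TPM in MFGR1 to MFGR4. Only MFGR3 and MC2 crossed. The log2 fold change was -1.26 (SE 0.29, limma adjusted p = 0.108), and without MC2 it was -1.49 with an adjusted p of 0.0389. With TPM rescaled without mitochondrial transcripts it was -1.40 (adjusted p = 0.0424), and with library weights -1.29 (adjusted p = 0.0390). When other single libraries were left out, the limma adjusted p reached 0.253. The second transcript of THY1 lay under the filter at 3.80 to 13.6 TPM in MC and 1.70 to 3.82 TPM in MFGR, with a log2 fold change of -1.06 (adjusted p = 0.301 over the transcripts at 1 TPM or more). Summed over both transcripts, THY1 was 63.4 ± 18.9 TPM in MC and 25.9 ± 9.49 TPM in MFGR (SD, n = 4; exact permutation test, two-sided, p = 0.0571). The first transcript held 83.4% to 93.3% of that sum in every library.

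The markers of brown and white adipocytes had smaller log2 fold changes, and their ranges overlapped. UCP1 was at 1548, 3366, 1317 and 1596 TPM in MC1 to MC4 and at 2292, 2889, 1520 and 2144 TPM in MFGR1 to MFGR4. MC2 exceeded all MFGR libraries, and the other MC libraries stood in the lower part of the MFGR range or below it. The log2 fold change of UCP1 was 0.24 (SE 0.31, adjusted p = 0.715), and it was 0.54 without MC2. CIDEA, a lipid droplet protein of brown adipocytes, had a log2 fold change of -0.07 in its first transcript (SE 0.15, adjusted p = 0.846). The other CIDEA transcript carries an identifier that the study also prints for the white adipocyte marker TCF21, so its gene is uncertain. It stood at 12.5 to 15.0 TPM in MC and 10.2 to 15.8 TPM in MFGR. The sum of both was 94.0 ± 12.4 TPM in MC and 88.5 ± 10.7 TPM in MFGR (SD, n = 4; exact permutation test, p = 0.571). Leptin had a log2 fold change of -0.34 (SE 0.41, adjusted p = 0.703) and HOXC9 one of -0.30 (SE 0.23, adjusted p = 0.643).

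**Figure D2:**
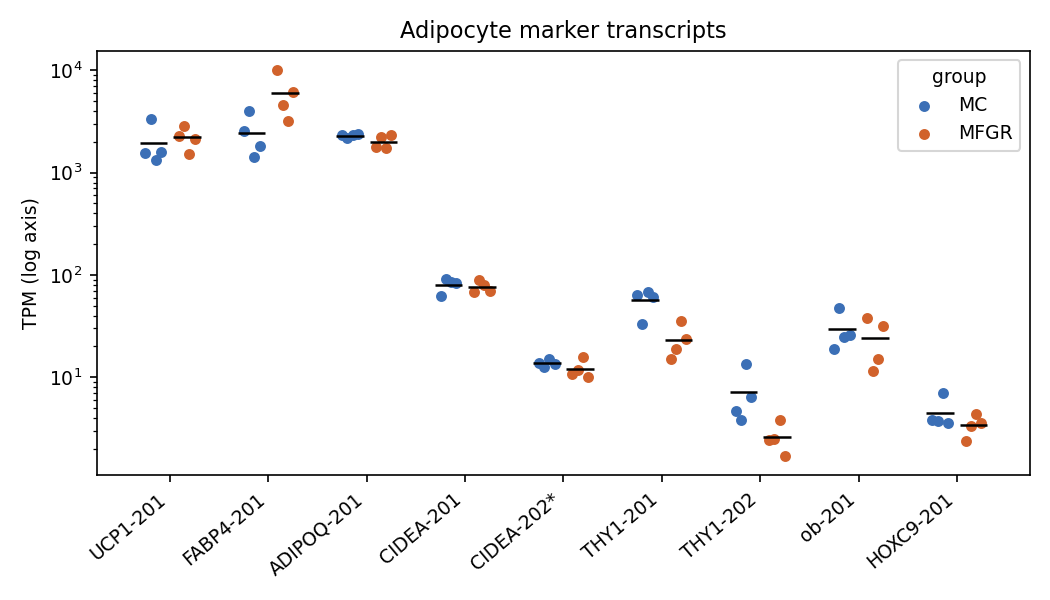
TPM (log axis) of the 9 marker transcripts in each MC (blue) and MFGR (orange) library, with the group mean as a bar; the asterisk marks the identifier printed for both CIDEA and TCF21. FABP4 is shifted up in MFGR and both THY1 transcripts down, each with overlap of the groups, while the log2 fold changes of the other markers lie between -0.34 and 0.24.

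Transcripts of the mitochondrial genome encode subunits of the respiratory chain and of ATP synthase. All 11 had a log2 fold change below 0 in MFGR, where 49.2% of all tested transcripts were above 0. Of the 11, 0 were called (0.0549% of all tested). With quantile normalization ND2, COX2, ND3 and CYTB were above 0. That method gives each rank the same value in every library, and most of these transcripts hold the top ranks. It therefore could not show whether a fall was shared. COX3, a subunit of cytochrome c oxidase, was the only one without overlap (4.45% of all tested lay wholly lower). COX3 was at 67150, 64361, 52297 and 63926 TPM in MC1 to MC4 and at 42623, 47328, 41928 and 40868 TPM in MFGR1 to MFGR4. Its log2 fold change was -0.52 (SE 0.10, limma adjusted p = 0.0816). The subunits of NADH dehydrogenase ranged from -0.14 for ND2 to -0.52 for ND5 (adjusted p = 0.588 and 0.198). CYTB and COX2 were nearest to 0, at -0.03 and -0.05. Together the 11 held 40.2%, 43.5%, 35.0% and 38.3% of the TPM in MC1 to MC4 and 37.7%, 31.2%, 29.2% and 36.1% in MFGR1 to MFGR4. Means were 39.3 ± 3.55% and 33.6 ± 4.02% (SD, n = 4; exact permutation test, two-sided, p = 0.114). TPM is a share, so a library with less mitochondrial RNA shows other transcripts higher. With the mitochondrial transcripts taken out and TPM rescaled, the median of the remaining tested transcripts was -0.13, and 13 were called higher and 64 lower. The balance of calls by direction therefore moved with this scaling.

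The study's supplementary lists give 9 pathways for MFGR against MC, 3 as lower and 6 as higher, with 51 different members. These lists were chosen by the study on the same 8 libraries, so their direction is not independent evidence. Of the 51 members, 42 passed the filter and are counted below. A member that passed only through its higher group had to differ, so the counts describe the lists and test nothing. Of the members given by identifier below, ENSOART00020023564 passed only through its MC libraries. ENSOART00020020067, ENSOART00020028055 and ENSOART00020021052 passed only through MFGR libraries.

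Steroid biosynthesis, the pathway from squalene to cholesterol, was given as lower. Of its 4 transcripts 2 passed the filter, and 0 of the 2 were called (0.0549% of all tested). ENSOART00020023564 was at 31.9, 41.6, 48.1 and 35.6 TPM in MC1 to MC4 and at 18.4, 9.86, 13.6 and 17.1 TPM in MFGR1 to MFGR4. The log2 fold change was -1.38 (SE 0.21, limma adjusted p = 0.0571), with no overlap. ENSOART00020029702 was at 33.5, 46.9, 41.9 and 32.9 TPM in MC1 to MC4 and at 22.9, 21.2, 23.3 and 25.2 TPM in MFGR1 to MFGR4 (-0.71, SE 0.13, adjusted p = 0.0816). The MFGR libraries of this transcript lay within 4 TPM of one another. Under the filter, ENSOART00020014319 was at 11.2 to 18.9 TPM in MC and 4.35 to 7.82 TPM in MFGR (-1.23), and ENSOART00020017450 at 18.2 ± 3.60 TPM and 6.87 ± 2.09 TPM (SD, n = 4), with a log2 fold change of -1.31. Thus none of the 4 overlapped between the groups. Of all tested transcripts 4.45% lay wholly lower, a share that does not cover the 2 under the filter. The list was chosen as lower on these libraries, so the comparison with that share tests nothing. The sum of the 4 was 111 ± 18.3 TPM in MC and 50.5 ± 8.20 TPM in MFGR (SD, n = 4). In the fit of all 16 libraries, both transcripts that passed the filter were called (adjusted p = 0.0222 and 0.0255), as they were with TPM rescaled without mitochondrial transcripts (0.0386 and 0.0408). ENSOART00020023564 was also called without MC2 (adjusted p = 0.0402). With library weights all 4 were called, the 2 under the filter among transcripts at 1 TPM or more (limma adjusted p from 0.0152 to 0.0489). A pseudocount of 5 called ENSOART00020023564 (limma adjusted p = 0.0476). Some other choices moved the 2 that passed the filter away from a call. Their highest limma adjusted p was 0.158 and 0.181 on leaving out a single library, and 0.202 and 0.244 over the other settings.

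Focal adhesions anchor cells to the extracellular matrix, and PI3K-Akt signaling carries growth signals from such contacts and from receptors. Both were given as lower and overlap almost fully. The 6 focal adhesion members are all among the 7 PI3K-Akt members. All 7 had log2 fold changes below 0, where 49.2% of all tested transcripts were above 0. The 4 that passed the filter held 0 calls (0.0549% of all tested) and 2 transcripts wholly lower in MFGR (4.45% of all tested), and of the 3 under the filter 2 lay wholly lower. The median log2 fold change of the 4 was -1.14, against -0.005 for all tested transcripts. ENSOART00020027189 was at 304, 178, 312 and 288 TPM in MC1 to MC4 and at 37.3, 99.1, 167 and 60.2 TPM in MFGR1 to MFGR4 (-1.74, SE 0.42, limma adjusted p = 0.109). ENSOART00020019023 was at 326, 169, 382 and 330 TPM in MC1 to MC4 and at 46.0, 140.5, 216 and 66.9 TPM in MFGR1 to MFGR4 (-1.54, SE 0.47, adjusted p = 0.149). MC2 was the lowest control and MFGR3 the highest growth-restricted library in both transcripts. ENSOART00020015518 and ENSOART00020022567 had log2 fold changes of -0.73 and -0.65. With TPM rescaled without mitochondrial transcripts, ENSOART00020027189 and ENSOART00020015518 were called lower (limma adjusted p = 0.0454 and 0.0484). Library weights called ENSOART00020027189 too (limma adjusted p = 0.0443). On leaving out a single library the adjusted p of the same pair reached 0.253 and 0.287. The remaining 3 were under 9 TPM in every library, with log2 fold changes of -0.69, -0.69 and -0.90.

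**Figure D3:**
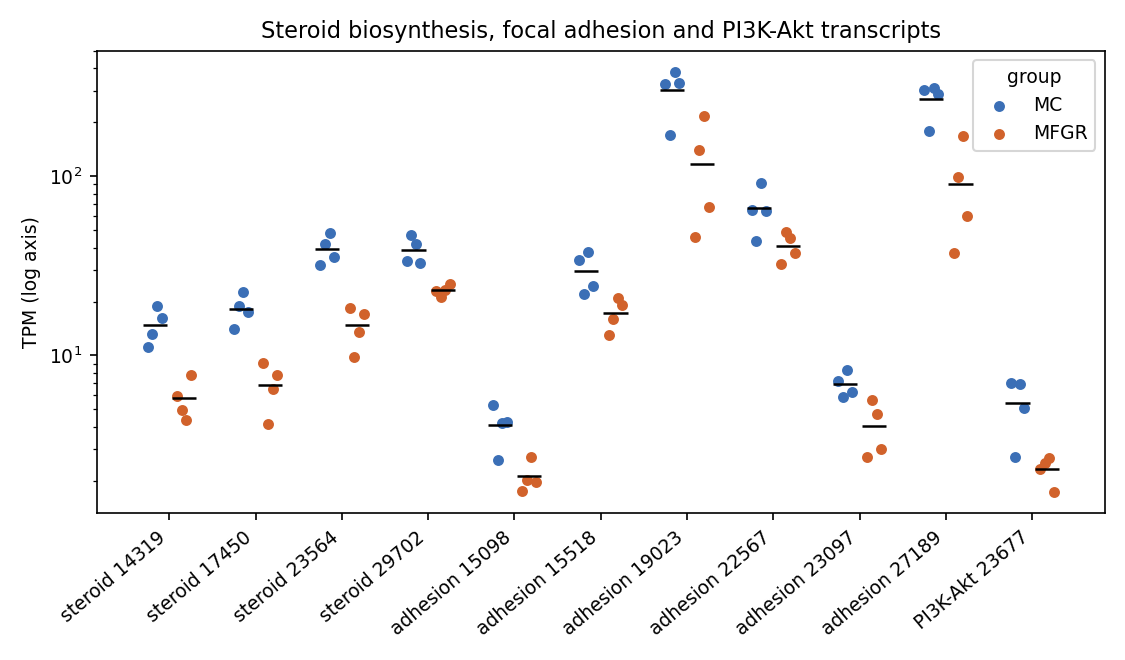
TPM (log axis) of the 4 steroid biosynthesis transcripts, the 6 focal adhesion transcripts and the 1 further PI3K-Akt transcript, named on the axis by the end of their identifiers, with MC in blue, MFGR in orange and group means as bars. All 4 steroid biosynthesis transcripts lie wholly lower in MFGR, and ENSOART00020019023 and ENSOART00020027189 (adhesion) spread widely within MFGR.

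Among the lists given as higher was that of ribosomal transcripts, which encode proteins of the translation machinery. Of the 16 in the ribosome list, 16 passed the filter and 16 were higher in MFGR (49.2% of all tested). Of these, 0 were called (0.0549% of all tested) and 12 lay wholly higher (6.35%). Their median log2 fold change was 0.56. Apart from 1 transcript the 16 ranged narrowly, from 0.45 in ENSOART00020009739 to 0.91 in ENSOART00020019137. ENSOART00020009739 was at 2408, 1700, 1661 and 1892 TPM in MC1 to MC4 and at 2408, 2837, 3002 and 2205 TPM in MFGR1 to MFGR4. ENSOART00020019137 was at 3646, 3104, 2658 and 3198 TPM in MC1 to MC4 and at 5073, 6296, 7529 and 5049 TPM in MFGR1 to MFGR4, with the lowest adjusted p of the list (0.0711 in limma). The sum of the 16 was 22357, 17766, 19364 and 19707 TPM in MC1 to MC4 and 27191, 33670, 37716 and 25148 TPM in MFGR1 to MFGR4. All MFGR libraries exceeded all MC libraries in this sum. MFGR2 and MFGR3, with the lowest mitochondrial shares, had the highest ribosomal sums. The part of that share in the result was measured only by rescaling without mitochondrial transcripts, under which ENSOART00020019137 had a log2 fold change of 0.79 and was called (adjusted p = 0.0408). It was also called without MC2 (adjusted p = 0.0491), in the fit of all 16 libraries (0.0255) and with library weights (0.0208). Without other single libraries its limma adjusted p reached 0.178. With quantile normalization the median of the list was 0.32.

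The exception, ENSOART00020021052, was nearly all or none. It was at 8.87, 1.24, 4.12 and 5.39 TPM in MC1 to MC4, and at 949, 1085, 1104 and 0.501 TPM in MFGR1 to MFGR4. MFGR4 thus stood below every control library, while the other 3 were at 949 TPM or more. The log2 fold change was 5.29 with an SE of 1.99 (limma adjusted p = 0.214), and without MFGR4 it was 7.65 with an adjusted p of 0.000679. Without it the ribosomal sum was 17765 to 22348 TPM in MC and 25147 to 36612 TPM in MFGR, still without overlap. Transcripts of this kind, with 1 library at 20 TPM or more and another of the same group under 1 TPM, numbered 29 among the MC and 20 among the MFGR libraries. How reads were divided between near-identical transcripts was not tested.

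A list named for coronavirus disease shares 14 of its 15 members with the 16 of the ribosome list, so it is not a separate result. Its 1 further member, ENSOART00020015159, was at 26.1, 9.68, 29.1 and 7.70 TPM in MC1 to MC4 and at 170.5, 31.6, 29.0 and 142 TPM in MFGR1 to MFGR4. Only MFGR1 and MFGR4 stood clearly above the controls (2.08, SE 0.68, adjusted p = 0.162).

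Metabolic pathways formed the longest list. Of its 19 members 16 passed the filter, 16 were higher in MFGR (49.2% of all tested), 12 lay wholly higher (6.35%) and 2 were called (0.0549%), the pair described above. The median log2 fold change was 0.78. The highest was ENSOART00020001447 at 2.07 (SE 0.53, limma adjusted p = 0.120), which the study also lists under oxidative phosphorylation and thermogenesis. It was at 28.2, 76.3, 21.8 and 29.5 TPM in MC1 to MC4 and at 62.7, 114, 277 and 242 TPM in MFGR1 to MFGR4. MC2 was above MFGR1, and without MC2 the transcript was called (adjusted p = 0.0481). It was also called in the fit of all 16 libraries (limma adjusted p = 0.0323) and with library weights (0.0361). Without other single libraries its limma adjusted p reached 0.265. The lowest was ENSOART00020002466 at 0.52 (SE 0.14, adjusted p = 0.123), which was at 27.1 to 31.7 TPM in MC and 35.3 to 55.0 TPM in MFGR. Next to it came ENSOART00020020067, at 16.3 to 19.5 TPM in MC and 24.4 to 33.1 TPM in MFGR (0.59, SE 0.13, adjusted p = 0.106). The sum of the 19 was 1570 ± 207 TPM in MC and 3047 ± 138 TPM in MFGR (SD, n = 4), with 1735 TPM in the highest MC and 2846 TPM in the lowest MFGR library.

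The lists of xenobiotic metabolism by cytochrome P450 and of chemical carcinogenesis hold the same 4 transcripts, and 3 of them are in the metabolic list. All 4 were higher in MFGR (49.2% of all tested), with a median log2 fold change of 0.75, and 1 was called (0.0549%), ENSOART00020022203. It was the 1 that lay wholly higher (6.35% of all tested), and the other 3 overlapped between the groups. ENSOART00020002217 was at 134 to 223 TPM in MC and 213 to 298 TPM in MFGR (0.62, SE 0.18, adjusted p = 0.128). ENSOART00020028055 was at 8.66 to 19.4 TPM in MC and 18.5 to 31.7 TPM in MFGR (0.88), and ENSOART00020021006 at 22.3 to 37.9 and 35.8 to 63.4 TPM (0.63).

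The PPAR signaling list has 4 members, of which 3 passed the filter, 3 were higher (49.2% of all tested) and 1 was called (0.0549%). Besides the called ENSOART00020016887 and FABP4 it holds ENSOART00020040605, at 82.9, 111, 87.1 and 78.5 TPM in MC1 to MC4 and at 175, 136, 124 and 130 TPM in MFGR1 to MFGR4. These did not overlap (0.65, SE 0.15, limma adjusted p = 0.108), and without MC2 the transcript was called (adjusted p = 0.0410). So it was with library weights (adjusted p = 0.0337). Without other single libraries its adjusted p reached 0.253. Under the filter, ENSOART00020008363 was at 4.47 to 17.1 TPM in MC and at 14.3 to 45.2 TPM in MFGR (1.24, adjusted p = 0.318). FABP4 made up most of the sum of the list, which was 2567 ± 1150 TPM in MC and 6248 ± 2990 TPM in MFGR (SD, n = 4) and overlapped between the groups.

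**Figure D4:**
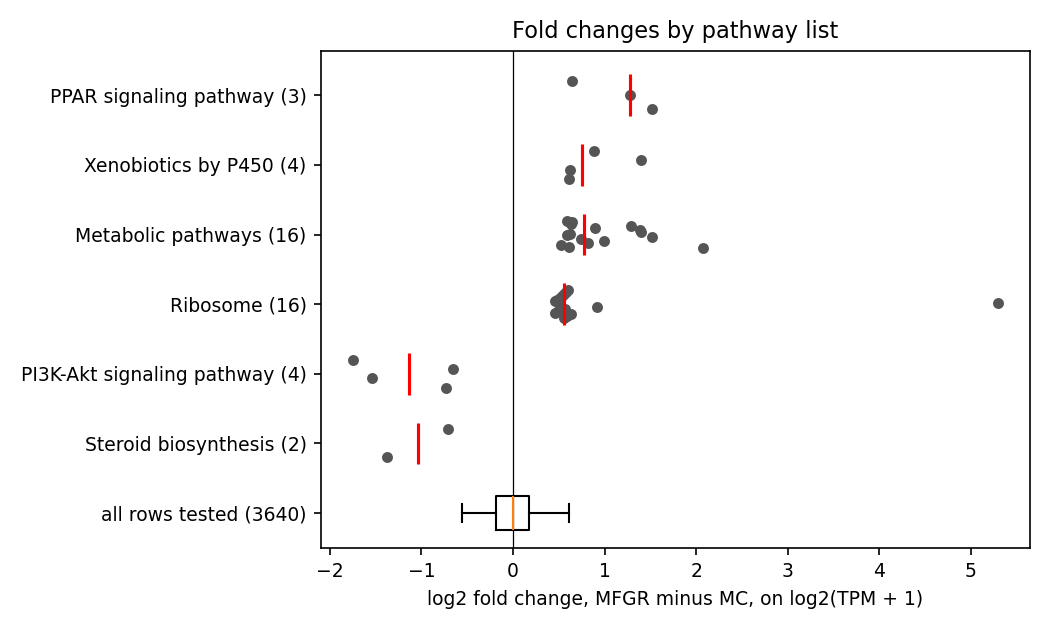
Log2 fold changes (x axis, MFGR minus MC on log2(TPM + 1)) of the members of 6 lists that passed the filter, with the number in parentheses and a red line at the median. The box shows the quartiles and median of all 3640 tested transcripts with whiskers at their 5th and 95th percentiles; list medians run from -1.14 to 1.28 and the ribosomal transcript at 5.29 stands alone.

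The study's 12 complete lists for the sex comparison of control fetuses were counted too. They were chosen on the MC libraries, which enter here, and the FC libraries, which do not. None of their members was called in limma (0.0549% of all tested). In the fit of all 16 libraries, ENSOART00020001447, ENSOART00020019137, ENSOART00020023564 and ENSOART00020026250 were called (limma adjusted p from 0.0222 to 0.0338). The medians of these lists ran from -0.26 for phagosome to 0.34 for ribosome, apart from steroid biosynthesis. There the 1 transcript that passed the filter was ENSOART00020023564. In the list of thermogenesis, the heat production of brown fat, 10 of 15 transcripts were higher and 5 lower, with a median of 0.11. Of oxidative phosphorylation transcripts given as lower in males, 8 of 12 were higher and 4 lower, with a median of 0.10. The other oxidative phosphorylation list had 3 higher and 8 lower, with a median of -0.05. In each of these 3 lists, transcripts thus stood on both sides of 0. The ribosome list for the sexes had 17 of 18 transcripts higher (49.2% of all tested). With quantile normalization its median was 0.064. Its sum overlapped between the groups, with 31147 TPM in MFGR4 and 31184 TPM in MC1. It shares members with the ribosome list above, ENSOART00020019137 among them, so it is not a separate result.

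Several of these measurements followed one another across the libraries of a group. FABP4, the PC1 score and the mitochondrial share ranked the libraries alike, with MC3 lowest and MC2 highest in MC, and MFGR3 lowest and MFGR1 highest in MFGR. The focal adhesion transcript ENSOART00020019023 had the reverse order of FABP4 over all 8 libraries. It ran from 382 TPM in MC3, where FABP4 was 1416 TPM, to 46.0 TPM in MFGR1, where FABP4 was 10071 TPM. THY1 was lowest where FABP4 was highest and highest where FABP4 was lowest, in both groups. The ribosomal sum did not follow this order. It ranked the MFGR libraries as PC2 did, from MFGR4 to MFGR3. These orders were noticed after the values were seen, with 4 libraries to a group, and they are given as a description.

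**Figure D5:**
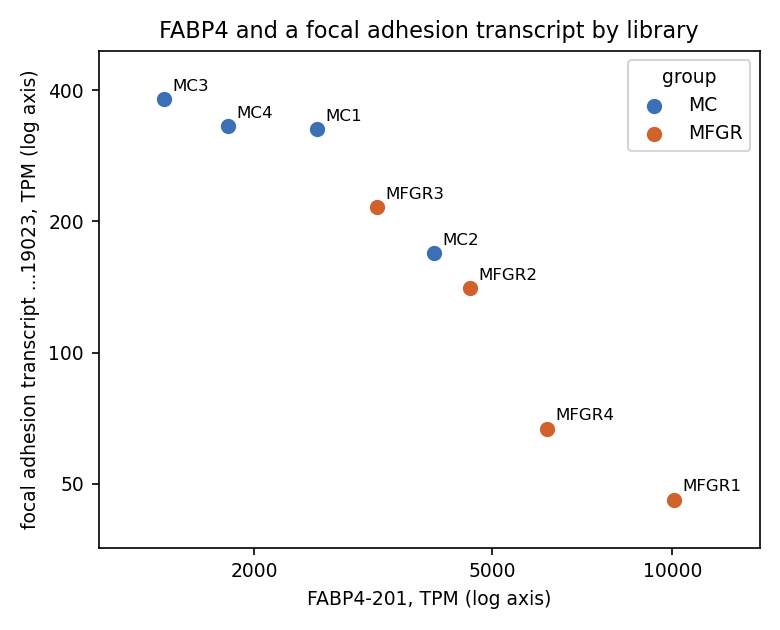
TPM of FABP4 (x axis, log) against TPM of the focal adhesion transcript ENSOART00020019023 (y axis, log) in each MC (blue) and MFGR (orange) library. Points descend from MC3 (1416 and 382 TPM) to MFGR1 (10071 and 46.0 TPM), with MFGR3 and MC2 in the middle.

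To ask whether the male differences were shared by females, the interaction of sex and growth restriction was tested in all 16 libraries. In limma 0 of the 3640 transcripts passed, and the lowest adjusted p was 0.218. For 449 (12.3%) the p before adjustment was under 0.05. With a weight for each library 68 passed, and with transcripts down to 1 TPM included 1 did. The median SE was 0.23 (log2), above that of the male difference alone. FABP4 had a log2 fold change of 1.28 in males and of -0.98 in females (FFGR minus FC), with an interaction of 2.26 (SE 0.62, adjusted p = 0.218). ENSOART00020029702 of steroid biosynthesis was at -0.71 in males and 0.22 in females, and ENSOART00020023564 at -1.38 and -0.15. The called ENSOART00020016887 was at 1.51 and 0.44, and ENSOART00020022203 at 1.39 and 0.20. THY1 was at -1.26 in males and -0.47 in females (adjusted p of the interaction 0.632). Of the 42 list members that passed the filter, 28 had the same sign in females. The share with the same sign over all tested transcripts was not counted. For 21 of the 42 the interaction p in limma was under 0.05 before adjustment (12.3% of all tested). The lists were chosen on the male difference, so these counts and the sizes in males and females are not an even comparison.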

How the data were processed

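RNA of perirenal adipose tissue was sequenced by the study from Swift RNA libraries, 1 per fetus. The authors checked reads with FastQC 0.11.9 and quantified them with Salmon (version not given in the sources used here) against Ensembl sheep transcripts (genome build Oar_rambouillet_v1.0), and deposited TPM values, which sum to 1000000 in each library. TPM holds no counts, so depth is unknown, no count model was used, and precision comes from the spread between fetuses.

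Groups follow the labels (Male with Control or Hyperthermia). Rows with at least 20 TPM in at least 3 of the 8 libraries were put on the log2(TPM + 1) scale. They were fitted with limma (version 3.58.1, under R 4.3.3), using a prior variance that follows the mean level, 6 residual degrees of freedom and Benjamini-Hochberg adjustment. Rows under the filter were taken from the same fit over the 14831 transcripts at 1 TPM or more in 3 libraries. The script was tested on simulated data. Single values were compared by exact permutation tests, two-sided. Principal components used centred, unscaled log2 values. The interaction used 1 mean for each of the 4 groups.

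Named transcripts are the 20 of the study's printed tables, all members of its lists with up to 7 members, and of longer lists those called and the 2 highest and 2 lowest. Members and lists were chosen with earlier results of these data known. All-or-none transcripts, library orders and the share of the first THY1 transcript were added after the values were seen. Lists printed in part were not used. Alternatives were another pseudocount, filter, scaling, variance model, fold, library weights, all 16 libraries, a replicate block and leaving out each library.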

Additional observations from a re-analysis of the deposited data

Results flagged for a closer look

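Of 122 groups of 4 libraries checked, 6 held a library far from the other 3, beyond Dixon's critical value. Chance gives about 1 in 20 groups. UCP1 was at 3366 TPM in MC2 and at 1317 to 1596 TPM in the other MC libraries. HOXC9 was at 6.94 TPM in MC3 and at 3.55 to 3.80 TPM in the other MC libraries. The PPAR signaling transcript ENSOART00020008363 was at 45.2 TPM in MFGR1 and at 14.3 to 19.2 TPM in the other MFGR libraries. The called transcript ENSOART00020016887 was at 94.6 TPM in MFGR2 and at 57.4 to 58.6 TPM in the other MFGR libraries. The ribosomal transcript ENSOART00020021052 was at 0.501 TPM in MFGR4 and at 949 to 1104 TPM in the other MFGR libraries. The metabolic transcript ENSOART00020001447 was at 76.3 TPM in MC2 and at 21.8 to 29.5 TPM in the other MC libraries.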

How the results depend on the processing

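The number of called transcripts was the least stable value. Against 2 higher and 0 lower, it was 4 and 0 with a pseudocount of 0.1, 8 and 3 with 5, 0 and 1 with a filter of 1 TPM or none, and 4 and 0 with 20 TPM in 4 libraries. It was 6 and 4 with quantile normalization, 7 and 4 with median-of-ratios scaling, 13 and 64 without mitochondrial transcripts, 5 and 0 without a variance trend, 4 and 0 with a robust prior, 82 and 64 with library weights (0.54 for MC2 to 2.11 for MC4), and 13 and 10 with all 16 libraries. Of the 23 calls in all 16 libraries, 2 were the calls above. Leaving out each library gave 0 to 43 higher and 0 to 39 lower. With the replicate number as a block it was 0 and 0, and the adjusted p of both calls was 0.140. Same-numbered libraries of both groups correlated at 0.0226 to 0.123 in their deviations, and 1 of the 8 correlated best with its own number, so the numbers were not taken to pair fetuses.

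The PC1 difference of 25.1 was 34.2 with a filter of 1 TPM, 35.9 without a filter and 20.6 with 20 TPM in 4 libraries, each with an exact permutation p above 0.05, and 23.0 to 30.1 without each library (exact permutation p from 0.0286 to 0.0857). That of PC2 was 33.2 with a filter of 1 TPM and 35.2 without one. Summed THY1, at -1.27, was -1.26 with median-of-ratios scaling and -1.41 without mitochondrial transcripts, both with an exact permutation p of 0.0286. The steroid biosynthesis median was -1.27 with a filter of 1 TPM or none, the ribosome and coronavirus medians 0.32 with quantile normalization, and the metabolic median 0.66 without mitochondrial transcripts and 0.67 to 0.85 without each library. Calls of the interaction numbered 1 with a filter of 1 TPM and 68 with library weights. Signs turned with quantile normalization for ND2 (0.12), COX2 (0.10), ND3 (0.011) and CYTB (0.018), with library weights for CIDEA (0.043), and without single libraries for CIDEA (-0.18 to 0.0017), COX2 (-0.18 to 0.057) and CYTB (-0.14 to 0.051). The causes were not tested. Depth is unknown, so no limit of detection can be given for low transcripts.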
